A study of Mus musculus with 24 samples.

Results

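The sterol and fatty acid synthesis genes are a list of 32 genes chosen by name for their part in these pathways: 6 enzymes of the mevalonate pathway, 11 enzymes that turn farnesyl diphosphate by way of squalene into cholesterol, 5 genes that regulate the pathway or carry sterols, and 10 enzymes that make, elongate or desaturate fatty acids. They are 32 of the 54087 gene symbols in a table of RNA-Seq read counts from mouse embryo skin, and all 32 were among the 17094 genes tested. The question was how the level of these genes differed between skin with both copies of the Dsg1 gene cluster (WT, Dsg1+/+), with 1 copy (HET, Dsg1+/-) and with none (KO, Dsg1-/-).

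Desmoglein 1, the product of the Dsg1 genes, is an adhesion protein of the cadherin family by which keratinocytes hold together at desmosomes. All embryos were of a C57BL/6 background and were taken at E18.5, shortly before birth, and dorsal skin was frozen whole, so epidermis, dermis and whatever fat was attached were measured together. The deleted allele was made with CRISPR/Cas9 and descends from a single founder. KO animals lack the Dsg1 gene cluster in every cell, and KO pups die soon after birth with peeling skin. There were 8 libraries per genotype with 8.98 M to 20.96 M counts each (M, mega). Libraries of the same title number and genotype were summed, which left 15 columns, 5 per genotype, called replicates 1 to 5, with totals of 15.3 M to 33.7 M. Values per column are CPM, the usual unit of counts scaled to the effective size of each library.

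The summed level of the 3 Dsg1 genes was 806 ± 112 CPM in WT, 422 ± 51.5 in HET and 0.548 ± 0.343 in KO (SD, n = 5 each), and neither HET nor KO overlapped WT (two-sided exact permutation test, p = 0.00794 each, the smallest that 252 arrangements allow). Keratinocyte markers summed to 58089 to 105350 CPM and dermal fibroblast markers to 14882 to 36936 CPM per column. The labels do not say which embryos shared a litter. In the pair of libraries summed as WT replicate 2, Y-linked genes stood at 325 CPM in one library and 0.154 CPM in the other. The other 8 pairs matched in these genes, so the WT replicate 2 pair is unlikely to come from 1 embryo. Across the 29 members with a mean of 20 CPM or more, the median absolute log2 difference within that pair was 0.17, and it was 0.04 to 0.07 within the other pairs. Results are therefore also given without WT replicate 2 and with its libraries kept apart. In WT, Y-linked genes were at 366 CPM in replicate 5, 143 CPM in replicate 2 and at most 0.316 CPM in the others. In HET they were at 331 to 409 CPM in replicates 1, 4 and 5 and at most 0.368 CPM in the others. In KO they were at 282 to 322 CPM in replicates 2, 3 and 4 and at most 0.286 CPM in the others. Sex was thus spread unevenly over the genotypes, and Nsdhl and Ebp lie on the X chromosome. A Y-linked covariate is among the alternatives.

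Cells build cholesterol from acetyl-CoA through mevalonate, squalene and a series of sterol intermediates, and they build long-chain fatty acids from the same precursor. Both routes are driven by the SREBP transcription factors, which stay in the endoplasmic reticulum while sterol is plentiful and, when it falls, are escorted by Scap to the Golgi, cut there and released to the nucleus. In skin, keratinocytes of the upper epidermis make cholesterol, fatty acids and ceramides for the lipid sheets of the water barrier, and sebaceous glands and fat cells make lipids of their own.

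The 2 members that passed the test described further on, Msmo1 and Nsdhl, encode consecutive enzymes of the removal of methyl groups from the sterol ring, and Hmgcs1 encodes the enzyme that makes the precursor of mevalonate. Their promoters are printed below because SREBP factors are known to act on sterol genes together with the factor that binds the CCAAT box. Each line holds the 250 bases before the gene's start in the RefSeq promoter table for GRCm38.p6, in the direction of transcription. Capitals mark the CCAAT box, on the other strand read as ATTGG, and in Hmgcs1 also the 9 letters TCACCCCAC, a sterol response element. Msmo1 lies on the minus strand at chr8:64733579-64733828, Nsdhl on the plus strand at chrX:72918271-72918520 and Hmgcs1 on the plus strand at chr13:119690101-119690350.
Msmo1: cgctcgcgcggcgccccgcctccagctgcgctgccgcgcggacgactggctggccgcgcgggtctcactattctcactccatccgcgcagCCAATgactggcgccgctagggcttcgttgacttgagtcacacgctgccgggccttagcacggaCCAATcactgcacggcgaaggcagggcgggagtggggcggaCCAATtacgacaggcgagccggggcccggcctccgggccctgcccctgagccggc
Nsdhl: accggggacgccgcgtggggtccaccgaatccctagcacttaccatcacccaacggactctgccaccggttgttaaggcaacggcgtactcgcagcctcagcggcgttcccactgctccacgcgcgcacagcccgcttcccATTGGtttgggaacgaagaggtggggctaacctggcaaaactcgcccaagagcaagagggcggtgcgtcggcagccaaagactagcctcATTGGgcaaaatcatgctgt
Hmgcs1: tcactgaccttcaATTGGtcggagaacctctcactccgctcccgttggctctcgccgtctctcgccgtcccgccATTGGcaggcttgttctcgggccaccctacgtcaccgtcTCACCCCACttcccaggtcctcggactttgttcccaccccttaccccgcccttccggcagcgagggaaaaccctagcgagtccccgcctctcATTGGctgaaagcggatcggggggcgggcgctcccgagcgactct

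Msmo1 held the CCAAT box 3 times, at 160 to 156, 96 to 92 and 55 to 51 bases before the start. Nsdhl held it at 109 to 105 and at 20 to 16 bases, and Hmgcs1 at 237 to 233, 176 to 172 and 45 to 41 bases before the start. The Hmgcs1 response element lay at 137 to 129 bases. All 3 windows also held the GC box GGGCGG on one strand or both, and no motif shared letters with another in them.

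Over the 25 members with an entry in the promoter table, a CCAAT box on either strand was found in 20 (80%), against 39.8% of 11248 tested genes with an entry and 37.5% of all 27025 entries. It was present in 14 of 14 sterol enzymes, in 3 of 4 regulators and in 3 of 7 fatty acid genes. A GC box was also found in 20 (80%), against 61.3% of tested genes. The response element TCACNCCAC was found in 1 of 25 members (4%), Hmgcs1, against 1.29% of tested genes. The E-box CACGTG was found in 6 (24%), against 9.47%. The members' windows had a median of 62.8% G and C, against 59.6% for tested genes. These matches describe the letters in the windows, and binding was not measured. Fdps, Fdft1, Sqle, Stard4, Scd1, Scd2 and Fads1 had no entry.

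In WT skin the members covered a wide range of levels per kilobase of coding-transcript exon length. Elovl1, which elongates saturated fatty acids toward the very long chains of ceramides, stood first at 295 ± 59.1 CPM per kb (SD, n = 5), above Scd2, a desaturase of saturated fatty acyl-CoA, at 100.2 ± 10.6. Acly, which supplies acetyl-CoA from citrate, followed at 61.6 ± 8.17 CPM per kb. Hmgcs1 at 50.7 ± 4.42 CPM per kb and Sqle, the squalene epoxidase, at 49.9 ± 9.10 were the leading sterol genes, and their ranges overlapped. The lowest members were Acaca, the acetyl-CoA carboxylase, at 2.81 ± 0.306 CPM per kb, and Idi1, the isopentenyl diphosphate isomerase, at 0.633 ± 0.143. Of the 31 pairs of neighbours in this order, 27 had overlapping ranges.

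**Figure D1:**
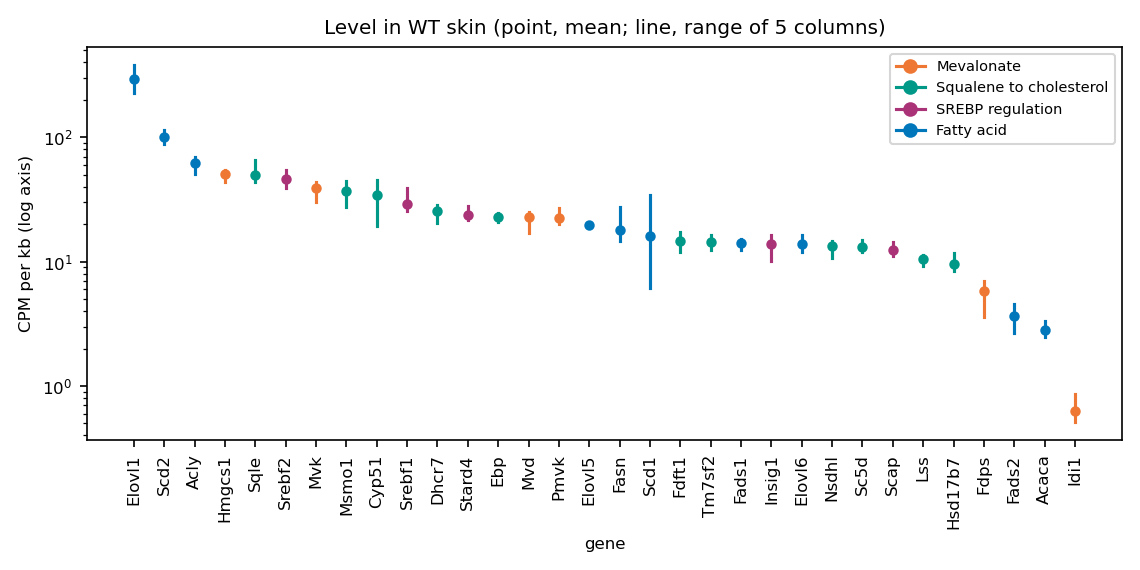
Level of the 32 genes in WT skin in CPM per kb of exon length on a log axis, ordered by mean; points are means, lines the range of 5 columns and colours the role. Elovl1 is highest at 295 CPM per kb and Idi1 lowest at 0.633, and most neighbours overlap.

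Part of that order depends on how the authors' counting treated shared sequence. In the GENCODE vM21 annotation, 25.3% of the 50-base stretches of Idi1 transcripts, 26.2% of Fdps, 26.5% of Fdft1 and 30.4% of Acaca also occurred in other genes. For Fdps and Fdft1 part of this was overlap with the neighbouring genes Gm43738 and Ctsb. For Hmgcs1 the share was 11.6%, for Msmo1 0.718% and for Nsdhl 0%. Scd1 and Scd2 shared 4.56% and 3.97%. The levels of Idi1, Fdps, Fdft1 and Acaca are therefore uncertain.

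Comparing KO with WT asked which members differ when Dsg1 is lost. Of the 32 genes, 28 had a higher mean level in KO by the fitted log2 fold change and 4 a lower one, and their median was 0.30, whereas that of all tested genes was -0.01 and 48.6% of them were higher. The 4 lower members were Tm7sf2, Fads1, Fads2 and Elovl5. At an adjusted p of 0.1 or below (edgeR quasi-likelihood test, Benjamini-Hochberg over 17094 genes), 2 members were called, Msmo1 and Nsdhl, both higher, against 1.15% of all genes called in either direction and 0.614% called higher. None reached an absolute log2 fold change of 1 as well, which 0.322% of all genes did. An unadjusted p below 0.05 was reached by 14 members, all higher (43.8%, against 10.1% of all genes), and one below 0.01 by 12, against 3.7% of all genes. No member had all KO columns above all WT columns, which held for 1.61% of all genes. At least 4 of 5 KO columns lay above every WT column in 10 members (31.2%), against 6.08% of all genes. These genes are regulated together, and the counts over them are descriptions.

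**Figure D2:**
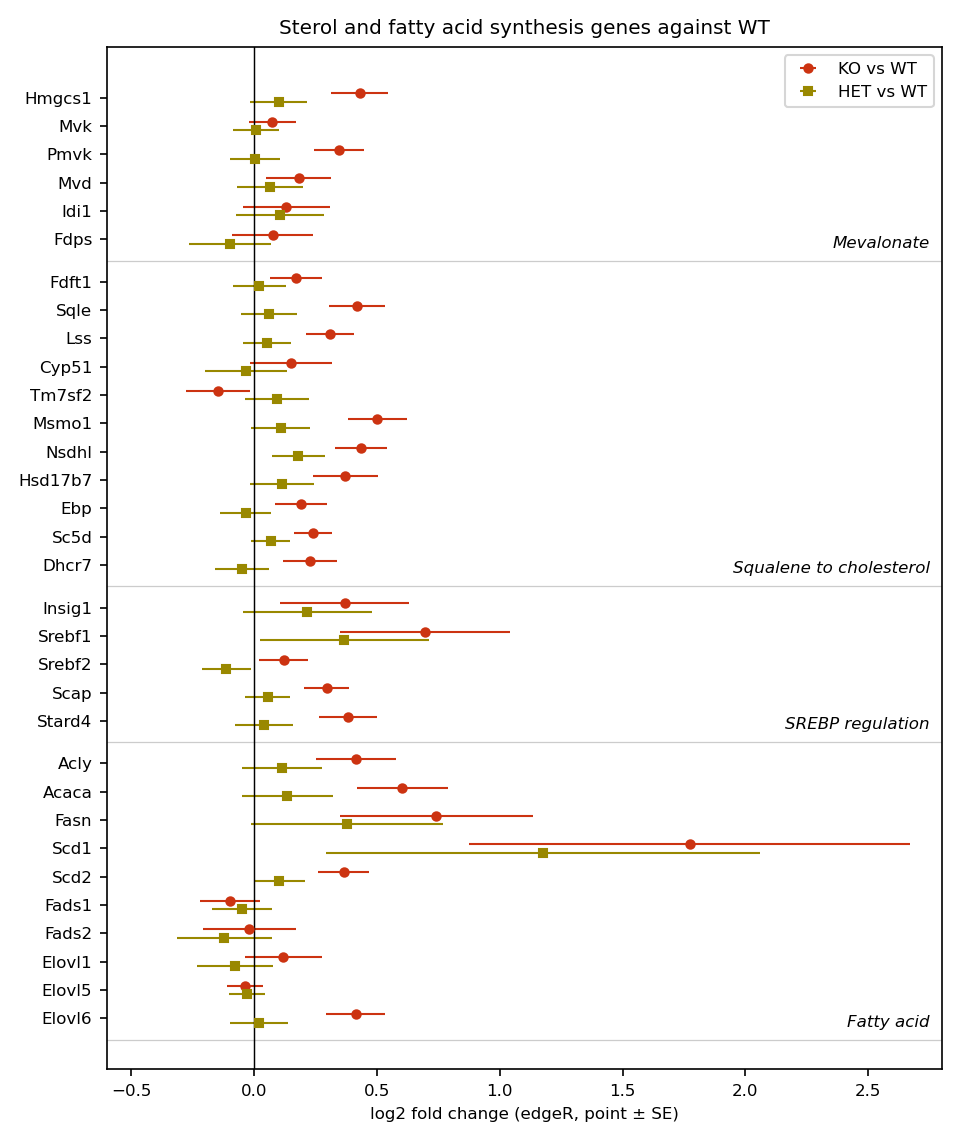
Log2 fold change of each gene against WT, with KO as circles and HET as squares; lines are ± 1 SE from the fit and italics name the roles. In KO 28 of 32 points lie above 0, and in HET 23 do; the long lines belong to Scd1, Fasn and Srebf1.

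Msmo1 and Nsdhl belong to the enzymes from squalene to cholesterol, of which 10 of 11 were higher in KO (median log2 fold change 0.24). Msmo1, the sterol C4-methyl oxidase, measured 78.9, 77.2, 75.7, 55.8 and 91.0 CPM in WT replicates 1 to 5, 77.9, 86.9, 68.8, 80.7 and 93.8 in HET and 104, 109, 88.0, 118 and 117 in KO. The KO columns all lay above the WT median, and only WT replicate 5 stood above the lowest of them. Msmo1 rose by 0.50 on the log2 scale (SE 0.12, adjusted p = 0.0915), or 41.5%.

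Nsdhl, the sterol dehydrogenase that removes the carboxyl group left by that oxidation, measured 28.9, 30.3, 31.9, 23.3 and 29.5 CPM in WT replicates 1 to 5, 32.6, 30.9, 31.5, 31.9 and 36.2 in HET and 42.1, 35.9, 31.3, 47.2 and 38.1 in KO. KO replicate 3 was the lowest KO column and only WT replicate 3 exceeded it. Nsdhl rose by 0.43 (SE 0.11, adjusted p = 0.0964), or 35.1%.

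Both adjusted p values lay just under the threshold, and both calls were lost with the total counts alone as scale, with only WT and KO in the fit, in series 1 libraries alone, with a covariate for Y-linked genes or adipocyte or dermal markers, with KO replicate 4 and HET replicate 3 left out together, and when WT replicate 1, 2 or 3, HET replicate 1, 2, 3 or 5, or KO replicate 1 or 4 was left out. Without WT replicate 2, Msmo1 was 0.51 (adjusted p = 0.212) and Nsdhl 0.45 (adjusted p = 0.212) on the log2 scale. With the libraries of that column kept apart the values were 0.49 (adjusted p = 0.0521) and 0.42 (adjusted p = 0.0582), and 12 members were called, with 7.18% of all genes called. Over 30 alternatives the log2 fold change of Msmo1 stayed between 0.41 and 0.58 and that of Nsdhl between 0.24 and 0.50. Msmo1 was called under 13 of the 30 and Nsdhl under 12.

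Sqle makes the epoxide that is closed into the sterol ring. Its level was 129.9, 125, 129, 121 and 182 CPM in WT replicates 1 to 5, 130.4, 154, 121, 147 and 165 in HET and 193, 191, 163, 189.5 and 183 in KO. All KO columns but replicate 3 exceeded the highest WT column, replicate 5, which stood apart from the other 4. Its log2 fold change was 0.42 (SE 0.11, adjusted p = 0.102), just past the threshold, and it was called under 11 of 30 alternatives. Lss, the lanosterol synthase that closes the ring, had a log2 fold change of 0.31 (adjusted p = 0.129). Hsd17b7, the keto reductase of the same methyl removal, was at 0.37 (adjusted p = 0.156), and Sc5d, the sterol desaturase, at 0.24 (adjusted p = 0.141). For all 3, as for Sqle, 4 KO columns exceeded every WT column.

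The remaining ring enzymes differed less. Ebp, the sterol isomerase, was at 0.19, and Dhcr7, which makes cholesterol from its last precursor in one branch, at 0.23. Fdft1, the squalene synthase, was at 0.17, and Cyp51, the demethylase that acts on lanosterol, at 0.15, with a value of 0.00 once WT replicate 4 was left out. Tm7sf2, a sterol reductase with a relative, Lbr, that carries out the same reaction, was at -0.15 (SE 0.13). Its KO columns spanned 17.1 to 26.4 CPM and overlapped the WT columns, at 21.1 to 27.95 CPM. KO replicates 1 and 4 lay below every WT column.

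**Figure D3:**
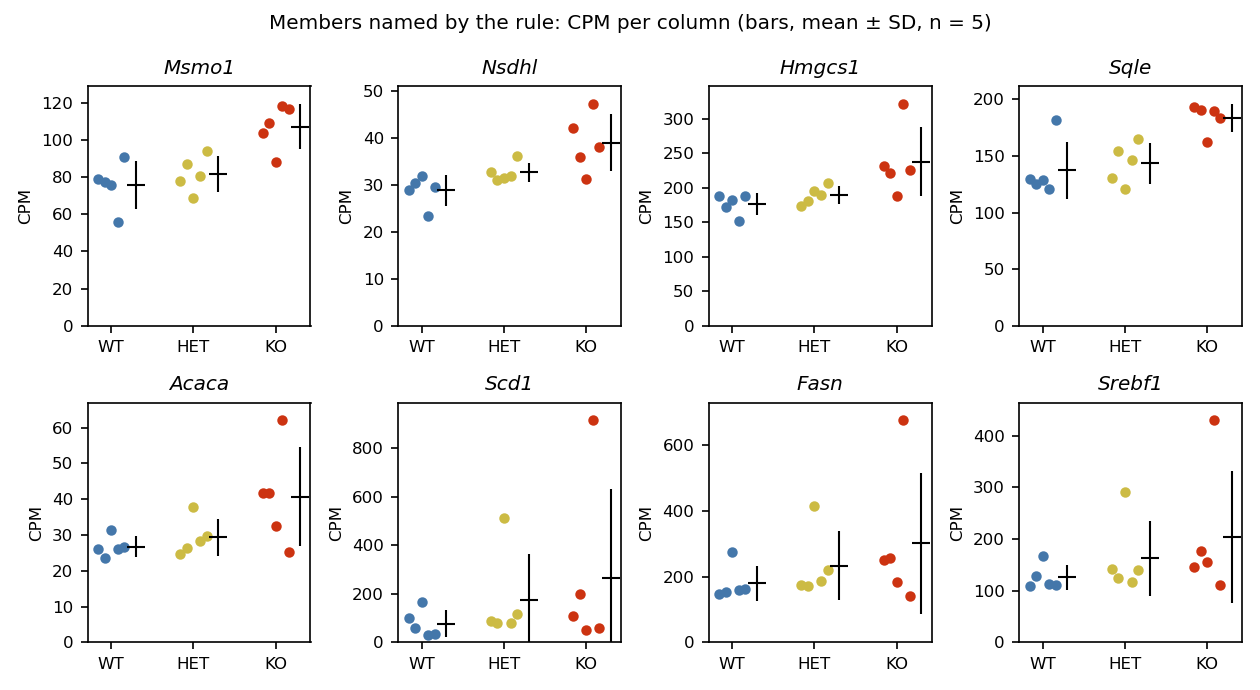
CPM in each of the 5 columns per genotype for the 8 genes named by the rule; crosses with lines are mean ± SD, drawn down to 0 at most. For Msmo1, Nsdhl, Hmgcs1 and Sqle 4 KO points stand above every WT point, whereas for Scd1, Fasn and Srebf1 KO replicate 4 and HET replicate 3 stand far above the rest.

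All 6 mevalonate genes were higher in KO (median log2 fold change 0.16), and 2 of them had an unadjusted p below 0.05. Hmgcs1 measured 189, 172, 182, 152 and 188 CPM in WT replicates 1 to 5, 174, 181, 196, 189.9 and 207 in HET and 232, 221, 189, 322 and 226 in KO. KO replicate 3 was level with the highest WT column, and KO replicate 4 stood above the other KO columns. The log2 fold change was 0.43 (SE 0.12, adjusted p = 0.102) and was 0.30 without KO replicate 4. Pmvk, the phosphomevalonate kinase, was at 0.35 (adjusted p = 0.113). Mvd, the decarboxylase, was at 0.18, Idi1 at 0.13, Fdps, the farnesyl diphosphate synthase, at 0.08 and Mvk, the mevalonate kinase, at 0.07, with SEs of 0.09 to 0.18. Without WT replicate 4, the lowest WT column for Mvk, Mvd and Fdps, Mvk was at -0.01 and Fdps at -0.06, and Mvd and Idi1 were at 0.09 and 0.07.

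The regulators were higher in KO in 5 of 5 cases (median log2 fold change 0.37). Stard4, which carries cholesterol between membranes, was at 0.38 (adjusted p = 0.125), and Scap at 0.30 (adjusted p = 0.125). For both, 4 KO columns exceeded every WT column. Srebf2, which encodes the SREBP that acts mainly on sterol genes, was at 0.12 (SE 0.10). Insig1, which holds the complex of Scap and SREBP in the endoplasmic reticulum, was at 0.37 (SE 0.26), but it was at 94.0 CPM in KO replicate 4 and at 32.6 to 40.8 CPM in the other KO columns, against 27.2 to 44.6 CPM in WT. Without KO replicate 4 its value was -0.02.

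Srebf1, which encodes the SREBP that acts mainly on fatty acid genes, measured 109, 129, 168, 114 and 111 CPM in WT replicates 1 to 5, 141, 125, 291, 117 and 139 in HET and 147, 178, 155, 429.9 and 111 in KO. KO replicate 4 and HET replicate 3 stood above all others, and the genotypes overlapped. Its log2 fold change was 0.69 (SE 0.35, adjusted p = 0.284) and was 0.23 without KO replicate 4.

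Of the 10 fatty acid genes 7 were higher in KO (median log2 fold change 0.39), the widest spread of the 4 roles. Scd1, the desaturase that makes oleate and palmitoleate, measured 99.8, 60.8, 165, 29.5 and 33.1 CPM in WT replicates 1 to 5, 89.6, 79.4, 511, 79.2 and 118 in HET and 107, 198, 49.8, 915 and 57.9 in KO. A single column per genotype, WT replicate 3, HET replicate 3 and KO replicate 4, was the highest, and the lowest KO column was below the WT median. The log2 fold change of 1.77 (SE 0.90, adjusted p = 0.296) was the greatest of the 32 genes and was 0.41 without KO replicate 4.

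Fasn, the fatty acid synthase, measured 147, 153, 276, 160.2 and 164 CPM in WT replicates 1 to 5, 174, 171, 416, 186 and 222 in HET and 250.4, 255, 183, 675 and 140.3 in KO. The same 3 columns were highest, and KO replicate 5 was lowest of all 15. Its log2 fold change was 0.74 (SE 0.39, adjusted p = 0.310), and 0.21 without KO replicate 4.

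Acaca, whose carboxylase provides the malonyl-CoA that the synthase uses, measured 26.01, 23.5, 31.5, 26.1 and 26.7 CPM in WT replicates 1 to 5, 24.7, 26.3, 37.9, 28.3 and 29.8 in HET and 41.7, 41.7, 32.6, 62.0 and 25.3 in KO. In KO, 4 columns exceeded every WT column and replicate 5 was within the WT range. The log2 fold change was 0.60 (SE 0.19, adjusted p = 0.125) and 0.40 without KO replicate 4. Acly was at 0.41 (adjusted p = 0.194) and at 0.21 without that column.

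Elovl6, which elongates palmitate, was at 0.41 (adjusted p = 0.110), and Scd2 at 0.36 (adjusted p = 0.109). They were called under 7 and 8 of 30 alternatives. Elovl1 was at 0.12 (SE 0.16). The genes for polyunsaturated fatty acids were close to 0: Fads1 and Fads2, the desaturases, were at -0.10 (SE 0.12) and -0.02 (SE 0.19), and Elovl5, their elongase, was at -0.04 (SE 0.07).

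The HET columns were set against WT to see whether the loss of 1 copy went with a difference in these genes. No member was called by edgeR, as for all genes (0% called), nor by DESeq2 or limma-voom, and none reached an unadjusted p below 0.05, against 1.58% of all genes. The median log2 fold change was 0.06, with 23 members higher and 9 lower, while 50.9% of all genes were higher. Msmo1 was at 0.11 (SE 0.12) and Nsdhl at 0.18 (SE 0.11). Scd1 had a value of 1.17 (SE 0.88), carried by HET replicate 3, without which it was 0.24. The HET and KO comparisons share the WT columns. Means rose from WT to HET to KO for 22 members (68.8%, against 24.1% of all genes), a description that rests on the same columns as the comparisons.

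KO was also compared with HET, a contrast that shares the KO columns with the first. Of the members 29 were higher in KO (median log2 fold change 0.25), against 49.3% of all genes. The edgeR test called 0 members (0.333% of all genes called), and 15 members had an unadjusted p below 0.05, all higher (46.9%, against 8.17% of all genes). Pmvk and Scd2 were the only members whose columns did not overlap, as for 0.954% of all genes, with log2 fold changes of 0.34 (SE 0.10, adjusted p = 0.166) and 0.26 (SE 0.10, adjusted p = 0.242). Msmo1 was at 0.39 (SE 0.12, adjusted p = 0.168) and Elovl6 at 0.39 (SE 0.12, adjusted p = 0.167). DESeq2 called 4 members (4.84% of all genes) and limma-voom 0 (0.456%). The 15 became 6, against 4.05% of all genes, with KO replicate 4 and HET replicate 3 left out together. Without KO replicate 4, HET replicate 1 or HET replicate 3 alone there were 10.

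The columns of a genotype were not alike across the genes. KO replicate 3 was the lowest KO column for 19 of 32 members, KO replicate 4 the highest for 14 and KO replicate 2 for 10. Among WT columns replicate 5 was the highest for 14 and replicate 4 the lowest for 14. Averaged over the 17 sterol enzymes, the log2 deviation from the WT mean was 0.07 in KO replicate 3 and 0.20 to 0.34 in the other KO columns. The WT columns ran from -0.22 in replicate 4 to 0.20 in replicate 5 and the HET columns from -0.09 to 0.22. In this average KO and WT thus overlapped by way of KO replicate 3 and WT replicate 5. Single genes also overlapped by way of other columns, such as WT replicate 3 for Nsdhl and WT replicate 1 with KO replicate 1 for Pmvk.

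**Figure D4:**
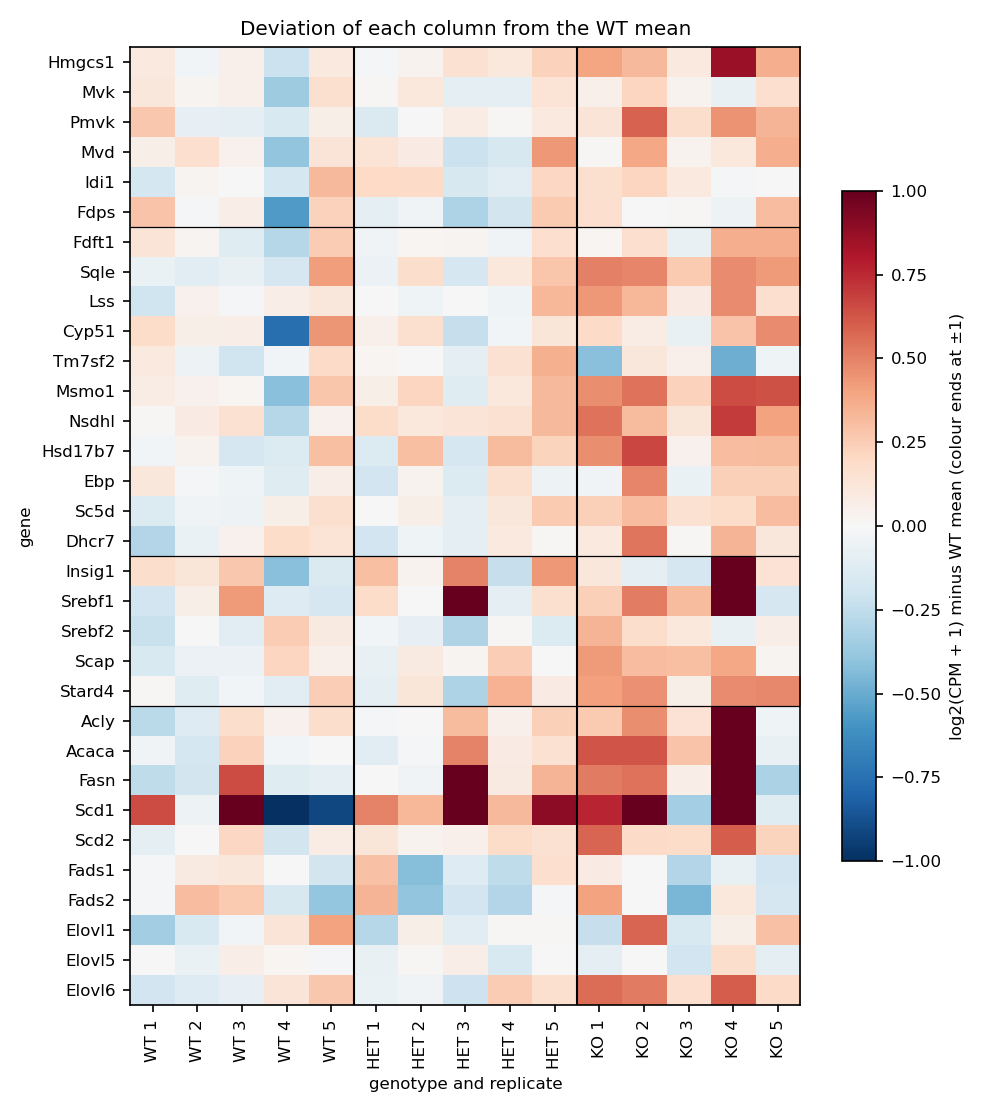
Log2(CPM + 1) minus the WT mean for the 32 genes (rows, in order of role, with lines between roles) in 15 columns; red is higher, blue lower, and the colour ends at ± 1. Most sterol genes are red in the KO columns except replicate 3, and Insig1, Srebf1, Acly, Acaca, Fasn and Scd1 are dark red in KO replicate 4.

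Markers of fat cells moved with part of the list. The 11 adipocyte markers summed to 707 to 2398 CPM in WT, to 1263 to 8194 in HET and to 1042 to 10793 in KO, with the maxima in WT replicate 3, HET replicate 3 and KO replicate 4, the same columns that were highest for Scd1 and Fasn. All 11 were higher in KO than in WT (median log2 fold change 1.66), as were 48.6% of all genes. An unadjusted p below 0.05 was reached by 5 (45.5%, against 10.1% of all genes). None of the 11 was called, against 1.15% of all genes, and none was at 0 in any column. Ucp1, the uncoupling protein of brown fat, chosen after its values were seen, was at 1461 CPM in KO replicate 4, 377 CPM in HET replicate 3 and 37.5 CPM in WT replicate 3, and at no more than 2.42 CPM in the other 12 columns. In whole skin, more cells of a type and more RNA per cell cannot be told apart.

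With the log2 adipocyte sum as a covariate, chosen after the data were seen, the KO vs WT log2 fold change of Scd1 was 0.01, of Fasn 0.01, of Srebf1 0.02, of Insig1 -0.03, of Acly 0.16 and of Acaca 0.30. The values of Msmo1 (0.51), Nsdhl (0.37, against 0.43), Sqle (0.47), Elovl6 (0.43) and Stard4 (0.45) were within 0.1 of those without it, and Hmgcs1 was at 0.31. Under this covariate 27 members were higher with a median of 0.19, and the 17 sterol enzymes had a median of 0.22 against 0.23 without it. With KO replicate 4 and HET replicate 3 left out together, those medians were 0.21 for all members and 0.20 for the sterol enzymes. Without KO replicate 4 alone, the median was 0.19 for the mevalonate genes, 0.25 for the enzymes from squalene on, 0.23 for the regulators and 0.21 for the fatty acid genes. No member was called in any of these cases, with adjusted p values of 0.170 for Msmo1 and Sqle under the covariate.

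**Figure D5:**
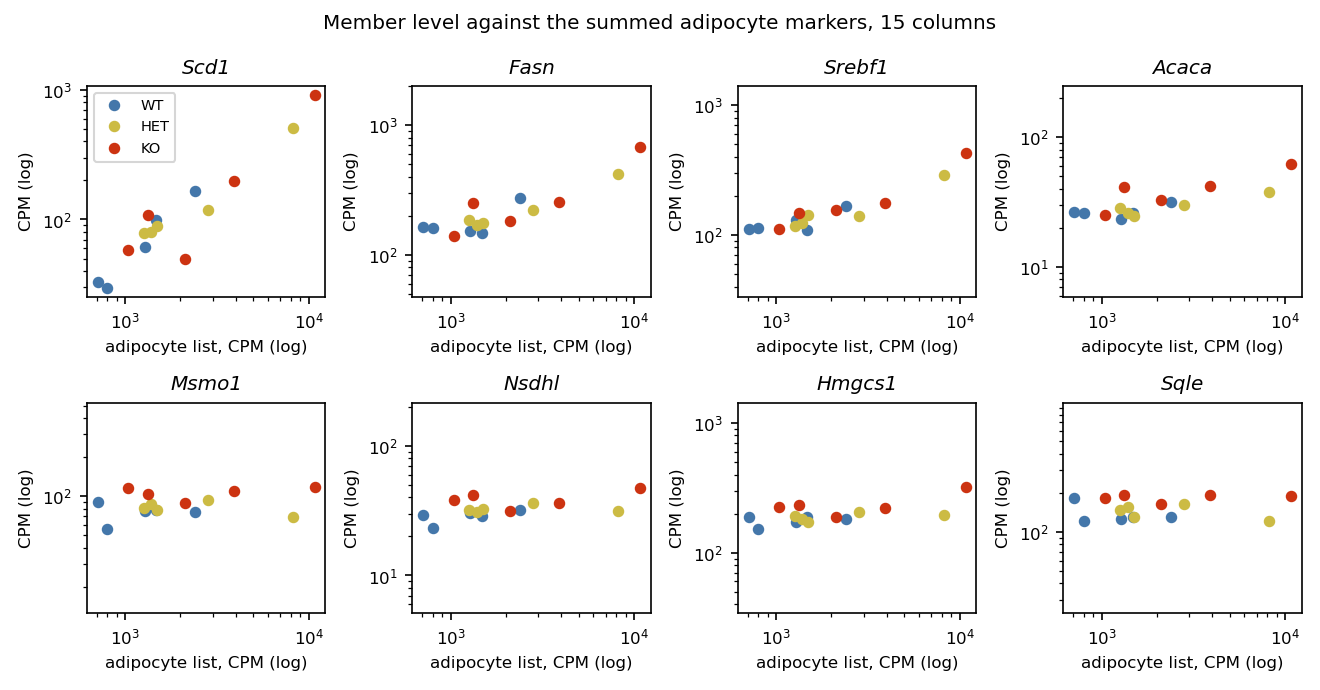
CPM of 8 genes against the summed CPM of the 11 adipocyte markers in the 15 columns, both axes log, with vertical axes spanning the same number of log units. Scd1, Fasn and Srebf1 are highest in the columns with sums of 8194 and 10793 CPM, whereas Msmo1 spans 55.8 to 118 CPM over the 15 columns and Nsdhl 23.3 to 47.2 CPM, both also highest in KO replicate 4.

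Other lists were set beside the results. Of all genes, for comparison, 48.6% were higher in KO than in WT, 1.15% were called and 0.614% were called higher. Sebaceous gland markers, of which 6 of 7 were tested, summed to 148 to 306 CPM in WT and 214 to 1215 CPM in KO, the maximum again in KO replicate 4. Of that maximum 809.9 CPM came from Cidea, a gene that brown fat also expresses. Without Cidea the sums spanned 142 to 250 CPM in WT, 119 to 394 CPM in HET and 199 to 405 CPM in KO. Most of each such sum was Krt79, which was at 391 CPM in both KO replicate 1 and KO replicate 4. Among keratinocyte markers 7 of 8 were higher in KO (median log2 fold change 0.16), with sums of 59275 to 81405 CPM in WT and 71707 to 105350 in KO. Of these markers Ivl, a precursor of the cornified envelope, was called (0.76, adjusted p = 0.0231). Most of each sum was Krt1 and Krt10, with WT means of 24702 and 32655 CPM and log2 fold changes of 0.32 and 0.23. The others were at 0.03 (Krt5), -0.09 (Krt14), 0.17 (Krt15), 0.16 (Trp63) and 0.08 (Lor). The 7 dermal fibroblast markers were all lower (median -0.23), with the lowest sum, 14882 CPM, in KO replicate 4. The 7 erythroid markers were all higher (0.55), 6 of 6 Schwann and myelin markers were lower (-0.19), 6 of 8 skeletal muscle markers were lower (-0.10), and 5 of 6 tested neutrophil markers were higher (1.62), of which Cxcr2 was called (2.31, adjusted p = 0.0891). The lower one was Camp (-0.03). S100a8 and S100a9 held 32.9 and 43.7 of 87.1 CPM of that list in KO replicate 4. They are not specific to neutrophils, since the paper stained S100A9 in epidermal nuclei of patients with Dsg1 mutations. Of the cell type lists, covariates were fitted for the adipocyte and dermal sums only, with which 27 and 29 members were higher in KO. With the dermal covariate, the KO vs WT log2 fold change was 0.55 for Scd1, 0.35 for Fasn, 0.32 for Srebf1 and 0.07 for Insig1. The part of the other lists in the results was not tested.

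Further genes of the pathways were listed by function rather than by how they moved. Of 11 other sterol and SREBP genes 9 were higher in KO (81.8%, against 48.6% of all genes, median log2 fold change 0.09). Of these 11 genes 0 were called, against 1.15% of all genes. Of 25 other fatty acid genes 21 were higher (84%, against 48.6% of all genes, median 0.39). An unadjusted p below 0.05 was reached by 8 of them (32%, against 10.1% of all genes). There was no overlap for 3 genes, as for 1.61% of all genes. Against 0.614% of all genes called higher, 1 of the 25 was called, Acsl5, an acyl-CoA synthetase. It measured 90.5 to 107 CPM in WT, 92.3 to 114 in HET and 113 to 150 in KO, and rose by 0.39 (SE 0.09, adjusted p = 0.0891). The largest value of that list was that of Thrsp, a lipogenic gene of fat and liver, at 2.17 (SE 1.33), which was at 619 CPM in KO replicate 4 and 471 CPM in HET replicate 3 and at 10.2 to 93.7 CPM elsewhere. Without KO replicate 4 the medians were 0.03 for the other sterol genes and 0.18 for the other fatty acid genes, and Thrsp was at -0.21 and Acsl5 at 0.33 (adjusted p = 0.204).

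Of 7 targets and genes of the LXR sterol receptors 6 were higher (median 0.42), led by Nr1h3, which encodes LXR alpha, at 0.90 (SE 0.44, adjusted p = 0.277), and at 0.45 without KO replicate 4. All 10 genes of fatty acid oxidation were higher (median 1.06), led by Ppara, a receptor that controls them, at 2.46 (SE 1.24, adjusted p = 0.296), which was at 100.3 CPM in KO replicate 4, 38.9 CPM in HET replicate 3 and at most 10.2 CPM in the other columns. Without that column the medians were 0.15 for the LXR list and 0.13 for the oxidation list, of which 9 of 10 were still higher, and Ppara was at -0.10. None of these 17 genes was called, against 1.15% of all genes, and 48.6% of all genes were higher.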

How the data were processed

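Poly(A) RNA of flash-frozen embryo skin was made into directional libraries and sequenced, in part as 50-base reads. The authors deposited raw counts, whole numbers per gene symbol in 1 column for each of 24 libraries. The submitters' processing notes name STAR and HTSeq without versions and the build hg19, a human build that does not match the mouse symbols, so the build is treated as unknown. Annotation and strand setting are not given in the sources used here, and overlapping genes or copies may share reads. Coordinates come from the RefSeq promoter table (GRCm38.p6), and exon lengths and shared 50-base stretches from GENCODE vM21.

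Libraries of the same title number and genotype were summed (15 columns, 15.3 M to 33.7 M counts (M, mega)). After filterByExpr, 17094 genes were scaled by TMM and tested with edgeR 4.0.16 (quasi-likelihood, robust, all 3 genotypes in 1 fit) in R 4.3.3, with Benjamini-Hochberg adjustment across these genes. Called means an adjusted p of 0.1 or below, with no limit on fold change. Each SE is the log2 fold change divided by the square root of F. The edgeR p values set the difference between genotypes against the spread between these columns only. They do not cover litters, which are not labelled, or other founders of the allele. The Dsg1 sum was compared on log2(CPM + 1). Level per kb is CPM divided by the exon length of coding transcripts.

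Genes were given values in every column if called in any comparison or among the 8 with the largest absolute log2 fold change in KO vs WT. Other members are given by their fold changes. Of the further pathway genes, the called one and the largest change of each list are named, and 1 gene is not reported here. The members, the lists and the tests were chosen with earlier results of these data known. Alternatives were DESeq2 1.42.0, limma-voom (limma 3.58.1), RLE factors, total counts, either no filter or one at a mean of 50 counts, either title series alone, 24 separate libraries, the WT replicate 2 libraries apart, 2 genotypes per fit, a Y-linked covariate, each replicate left out, an adjusted p of 0.05, and, chosen after seeing the data, covariates for the adipocyte and dermal sums and the omission of KO replicate 4 with HET replicate 3. The scripts were tested on simulated data with known changes.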

Additional observations from a re-analysis of the deposited data

Results flagged for a closer look

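Each genotype's 5 columns were examined for the 32 members and for 8 marker sums, 120 groups in all, for an extreme column standing far from the other 4, measured as its distance from the nearest of them divided by the whole range. Dixon's critical value was passed in 17 groups, where about 1 in 20, or 6, would be found by chance, and 9 of them concerned KO replicate 4 or HET replicate 3. Values in parentheses are this ratio, and no explanation was tested for any of them.

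In KO, replicate 4 stood highest for Scd1 (0.828), Fasn (0.785), Srebf1 (0.79), Insig1 (0.867) and the sebaceous gland sum (0.806), in which Cidea alone made up 809.9 of 1215 CPM. In HET, replicate 3 stood highest for Scd1 (0.91), Fasn (0.793), Srebf1 (0.861) and the adipocyte sum (0.774). WT replicate 3 was the highest WT column for Fasn (0.866), at 276 CPM against 147 to 164 CPM in the other WT columns.

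Among sterol genes, WT replicate 4 was the lowest WT column for Mvk (0.712) and Mvd (0.749), at 60.7 and 29.8 CPM. WT replicate 5 was the highest WT column for Sqle (0.858), at 182 CPM against 121 to 129.9 CPM in the others. HET replicate 5 was the highest HET column for Lss (0.873), at 61.9 CPM against 47.5 to 49.3 CPM. KO replicate 3 was the lowest KO column for Stard4 (0.803), at 127 CPM against 162 to 171 CPM. Of the other marker sums, KO replicate 2 was highest in KO for keratinocyte genes (0.786), and WT replicate 4 highest in WT for neutrophil genes (0.744).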

How the results depend on the processing

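No paired analysis was possible because no title number occurs in more than 1 genotype. In KO vs WT the 17 sterol enzymes were higher in 14 to 17 cases and all members in 26 to 29 of 32 under 30 alternatives. Member medians were 0.19 to 0.35. The number of calls moved, however, and the cause was not tested for any setting. The 2 members called (1.15% of all genes called) became 13 with DESeq2 (8.71%) and 5 with limma-voom (2.89%). RLE factors (2.11%) or no filter (0.613%) gave 4 each. The stricter filter, a mean of 50 counts, left 1 (1.37%), and series 2 alone gave 6 (2.34%). There were 15 with 24 separate libraries (23.7%), which count some embryos more than once. With number 35 (WT replicate 2) apart there were 12 (7.18%). None was called with total counts (1.27% of all genes called), in series 1 alone (0.0186%), which holds fewer columns, or with 2 genotypes per fit (0.146%). The same held with the Y-linked (0.269%), adipocyte (0.199%) or dermal covariate (0.404%), without KO replicate 4 and HET replicate 3 (0.215%), and at an adjusted p of 0.05. Leaving out 1 replicate gave 0 to 11, with 11 without KO replicate 3 (4.27%) or 5 (10.9%) and 9 without WT replicate 4 (9.74%). All genes called moved too, from 1.15% to between 0.0186% (series 1) and 23.7% (24 libraries).

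The other pathway lists held 11, 25, 7 and 10 genes. The 1 of these called in KO vs WT became 10 with DESeq2 (8.71% of all genes called). There were 3 with limma-voom (2.89%), RLE factors (2.11%), no filter (0.613%) or series 2 (2.34%). With 24 libraries there were 14 (23.7%), and with number 35 apart 9 (7.18%). The count was 0 in series 1, with 2 genotypes, with each of the 3 covariates, without KO replicate 4 and HET replicate 3, and at 0.05. Without 1 replicate it was 0 to 9, with 0.17% to 10.9% of all genes called. In KO vs HET the 0 members called became 4 with DESeq2 (4.84% of all genes), 17 with 24 libraries (24.6%) and 0 to 3 without 1 replicate (0.0586% to 5.44%). The 0 other genes became 1, 10 and 0 to 1 in the same settings. In HET vs WT none was called under any alternative.

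Of the 8 genes named by the rule, 4 turned in direction. With the adipocyte covariate, HET vs WT was -0.0108 for Scd1, -0.1498 for Fasn, -0.1346 for Srebf1 and -0.0943 for Acaca. In KO vs HET, series 1 alone gave -0.9636 for Scd1, -0.1345 for Fasn and -0.2142 for Srebf1, and the dermal covariate gave -0.5871 for Scd1. Leaving out 1 replicate gave -0.7624 to 1.5426 for Scd1, -0.1715 to 0.6788 for Fasn and -0.1376 to 0.6459 for Srebf1, negative without KO replicate 4. Levels per kb in WT moved by less than the spread between columns under RLE factors, series 2 alone and the omission of 1 WT replicate. The lowest member, Idi1, had 26 counts in its lowest column. Its SE in KO vs WT, 0.177, was the largest of the mevalonate genes, followed by 0.166 for Fdps.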
